A study of Homo sapiens with 4 samples.

Results

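The promoters and gene bodies of 10 genes for the corepressor complexes built around the histone deacetylases HDAC1 and HDAC2 were examined for open chromatin. The genes are HDAC1, HDAC2, HDAC3, RCOR1, KDM1A, SIN3A, MTA1, MTA2, CHD4 and RBBP4, out of 19970 protein-coding genes. They were chosen by name and function and not by their values, although earlier results of these data were known. A peak belonged to a gene when it lay within 3 kb of a transcription start site of any annotated transcript of that gene, or touched its gene body. By this rule the 10 genes held 20 of the 47610 control peaks and 22 of the 42682 sgSNHG1 peaks.

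Histone deacetylases remove acetyl groups from histone tails, which tightens the hold of histones on DNA and is linked to repression of transcription. HDAC1 and HDAC2 do this inside larger complexes. The CoREST complex pairs them with the scaffold RCOR1 and the histone demethylase KDM1A, the SIN3 complex assembles on the scaffold SIN3A, and the nucleosome remodelling and deacetylase (NuRD) complex adds MTA proteins and the remodeller CHD4. RBBP4 is a histone-binding chaperone shared by NuRD and SIN3, and HDAC3 is a related deacetylase that works mainly in the separate NCoR/SMRT complex.

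Open chromatin was mapped by ATAC-seq, in which a transposase cuts accessible DNA, in 2 groups of 2 replicates of SK-N-BE(2)C, a neuroblastoma line with amplified MYCN. For the depletion clones the study describes transfection with Cas9, guide RNA and a surrogate reporter, puromycin selection, and expansion from sorted single cells. Of the control it says only that it was a clone infected with a non-targeting guide sequence. The control group carried a non-targeting guide RNA and is labelled wildtype, and the sgSNHG1 group carried guides against the long non-coding RNA gene SNHG1 and is labelled SNHG1 knockout. Despite that label, the study states that SNHG1 expression was repressed but the knockout was not complete. The study names HDAC1 and HDAC2 among the proteins that bind the SNHG1 transcript. It also measured both by qRT-PCR and western blot, and reported that depletion changed neither their expression nor their stability. The 2 peak lists address open chromatin at the genes for these proteins and their partners, not RNA or protein.

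The replicates of each group were combined before peaks were called, so every value below comes from 1 pooled list per group. There is no replicate spread, differences between clones cannot be told apart from the effect of the guides, and no test between the groups could be made. Errors below are counting errors of the fragments at a peak's summit, which cover neither biological nor library variation. In a pool of cells, fewer cells with an open site and a less open site in every cell cannot be told apart either.

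Fold enrichment is the height of fragments at a peak's summit, the pileup, over the local background around it, and a log2 ratio below 0 means a lower value in sgSNHG1. The median pileup of all peaks was 24 fragments in control and 20 in sgSNHG1. Promoter peaks were present in both lists for 6 of 7 adrenergic neuroblastoma markers, with TH listed in neither, and for 3 of 7 markers of other cell types, namely CDH5, EPCAM and COL1A1. No peak stood at the promoters of the blood cell markers PTPRC and CD3E, of the heart gene MYH7 or of the liver gene ALB. At the start of the targeted gene SNHG1, the control list had a peak of 425 bp over the start site (fold enrichment 5.71), and the sgSNHG1 list a peak of 170 bp that did not cover it, with its summit 50 bp away (6.04). A peak there does not check the edit.

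The main start sites of the members lay in GC-rich sequence. RefSeq windows (build GRCh38.p14) of 300 bases, from 250 before to 50 after a start site, were matched for 10 of 10 members, and their GC content ran from 63.0% in MTA2 to 77.7% in MTA1, against a median of 62.3% over 21548 windows of protein-coding genes. The exon-free stretches upstream of 5 start sites are shown, because they carry the highest peaks of both lists (HDAC2 and RBBP4), the closest match between the lists (HDAC1), a peak that was split in sgSNHG1 (RCOR1), and a start site with no peak in either list (MTA1). Each reads 5′ to 3′ in the direction of its gene and ends at or just before the start site. Capitals mark the sequences searched.
HDAC1 (chr1:32291833-32292082, plus strand): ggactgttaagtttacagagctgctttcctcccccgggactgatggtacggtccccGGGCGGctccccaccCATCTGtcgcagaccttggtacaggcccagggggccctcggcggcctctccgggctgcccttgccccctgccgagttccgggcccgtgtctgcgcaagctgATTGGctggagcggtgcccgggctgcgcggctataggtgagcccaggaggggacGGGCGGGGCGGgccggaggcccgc
HDAC2 (chr6:113971158-113971398, minus strand): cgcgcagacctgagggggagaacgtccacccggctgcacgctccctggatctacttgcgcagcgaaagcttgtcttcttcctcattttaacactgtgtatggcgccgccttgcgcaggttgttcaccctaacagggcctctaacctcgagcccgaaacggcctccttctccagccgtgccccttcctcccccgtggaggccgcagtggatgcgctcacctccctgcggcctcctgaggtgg
RBBP4 (chr1:32650958-32651141, plus strand): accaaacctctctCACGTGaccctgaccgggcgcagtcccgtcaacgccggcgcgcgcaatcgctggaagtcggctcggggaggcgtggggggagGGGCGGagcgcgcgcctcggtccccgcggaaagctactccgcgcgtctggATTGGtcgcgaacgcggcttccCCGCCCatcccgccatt
RCOR1 (chr14:102592399-102592648, plus strand): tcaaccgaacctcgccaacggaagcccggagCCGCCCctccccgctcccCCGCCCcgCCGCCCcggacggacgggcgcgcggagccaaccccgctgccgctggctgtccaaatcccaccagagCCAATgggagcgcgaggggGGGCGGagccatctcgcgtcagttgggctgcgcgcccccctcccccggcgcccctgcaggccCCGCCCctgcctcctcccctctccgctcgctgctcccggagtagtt
MTA1 (chr14:105419740-105419819, plus strand): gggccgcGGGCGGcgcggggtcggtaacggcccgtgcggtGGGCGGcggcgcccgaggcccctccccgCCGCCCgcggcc

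Of the 10 motifs searched on both strands of the whole windows, the GC box of SP and KLF factors, GGGCGG or its reverse complement CCGCCC, was present in 9 of 10 members and in 56.8% of all windows. HDAC2 was the member without it, and its window held none of the motifs, as did 13.4% of all windows. The CCAAT box, shown as CCAAT or its reverse complement ATTGG, stood in the windows of HDAC1, RCOR1, SIN3A and RBBP4, and in 34.8% of all windows. RBBP4 alone carried the E-box CACGTG (8.35% of windows), HDAC1 alone the E-box CATCTG (12.1%), and MTA2 and CHD4 the ETS sequence CCGGAAG (12.9%). No window of a member held the NRF1 sequence (7.41% of windows), the CRE sequence TGACGTCA (2.29%), the YY1 sequence AAGATGGC (3.59%), the AP-1 sequences TGACTCA or TGAGTCA (4.03%) or the TATA sequence TATAAA (9.44%). The CHD4 window began at a RefSeq start site 928 bp from the one used below, so its letters describe another stretch of that gene. The matches describe letters only.

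Of the 10 members, 10 had a promoter peak in both lists, against 63.7% of protein-coding genes. Control fold enrichment ran from 4.80 at SIN3A to 10.3 at HDAC2, and sgSNHG1 fold enrichment from 5.62 at SIN3A to 11.1 at RBBP4. The member median was 6.98 in control and 6.62 in sgSNHG1, below the medians of 7.87 and 7.37 over all protein-coding genes with a peak in both lists. By the rule of any transcript, these genes thus had open promoter chromatin in both groups, with medians a little under the middle of the genome's open promoters. The values of MTA1 and CHD4 came from start sites away from the main one. The members were also spread out. In control HDAC2, RBBP4 and KDM1A stood at percentiles 80, 77 and 74 of genes with a promoter peak, and SIN3A, HDAC3 and MTA1 at 14, 22 and 24.

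**Figure D1:**
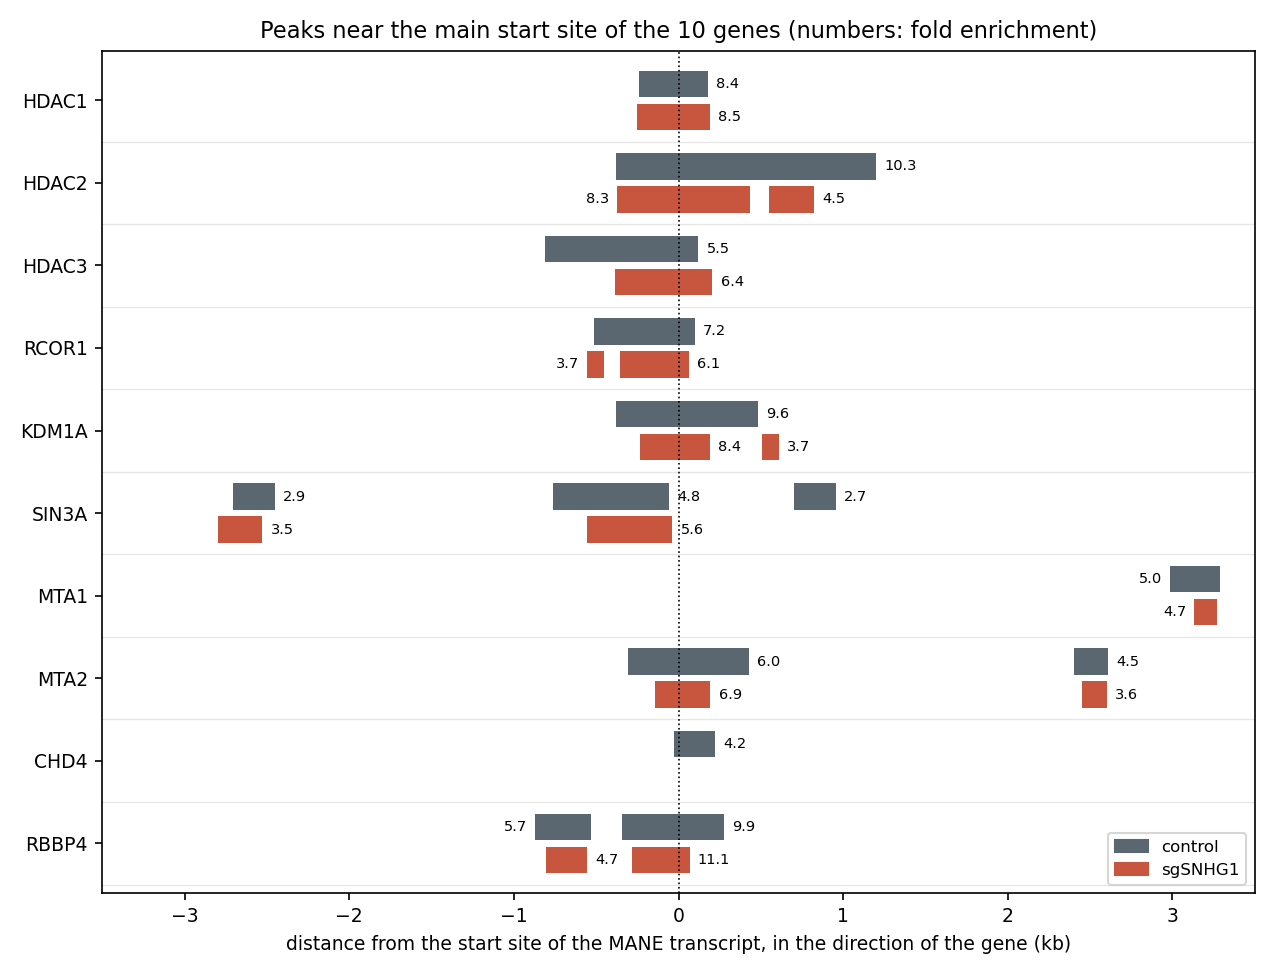
Peaks of the 10 genes within 3.5 kb of the start site of the MANE transcript (the reference transcript chosen jointly by RefSeq and Ensembl), drawn to scale in kb in the direction of each gene, with control above sgSNHG1 and the fold enrichment of each peak printed beside it. Peaks flanked or covered the start site in both lists at 8 genes, CHD4 had such a peak in control alone, and the nearest peak of MTA1 lies 3192 bp inside the gene in both lists. Peaks further away are outside the plot, namely the other peaks of MTA1, those of CHD4 more than 6 kb upstream, and distant peaks of SIN3A, HDAC2 and RCOR1.

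By the highest promoter peak, the members' values differed little between the groups. By fold enrichment, 4 members were lower in sgSNHG1 (HDAC2, RCOR1, KDM1A and CHD4) and 6 were higher (HDAC1, HDAC3, SIN3A, MTA1, MTA2 and RBBP4), while 60.4% of 12714 protein-coding genes were lower. With a promoter window of 1 kb MTA1 turned lower, which made 5 lower and 5 higher with a median of -0.06. With fold enrichment summed over all promoter peaks of a gene, 3 were lower and 5 of the 10 signs changed (HDAC2, RCOR1 and KDM1A to higher, SIN3A and MTA1 to lower). By that sum CHD4 stood at -1.23 and SIN3A at -0.53, both past 0.5 in size. The share of all genes past 0.5 by the sum was not computed. By the highest peak the median log2 ratio was 0.04 over the members and -0.07 over the 12714 genes, whose quartiles were -0.26 and 0.11. By the same measure, no member reached a log2 ratio of 0.5 in either direction, and no member's 95% counting interval excluded 0. Over all genes, 7.32% were at or below -0.5, 2.01% were at or above 0.5, and 1.99% had an interval that excluded 0. With member counting errors of 0.25 or more, the interval adds little to the threshold of 0.5. Over all these genes the median counting error was 0.35 and the robust standard deviation of the log2 ratio was 0.28. Intervals this wide could exclude 0 at few genes. The counting errors of the members ran from 0.25 to 0.39 and their 95% intervals reached from -0.92 to 0.89. Smaller differences than these interval ends are therefore not excluded at this depth.

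**Figure D2:**
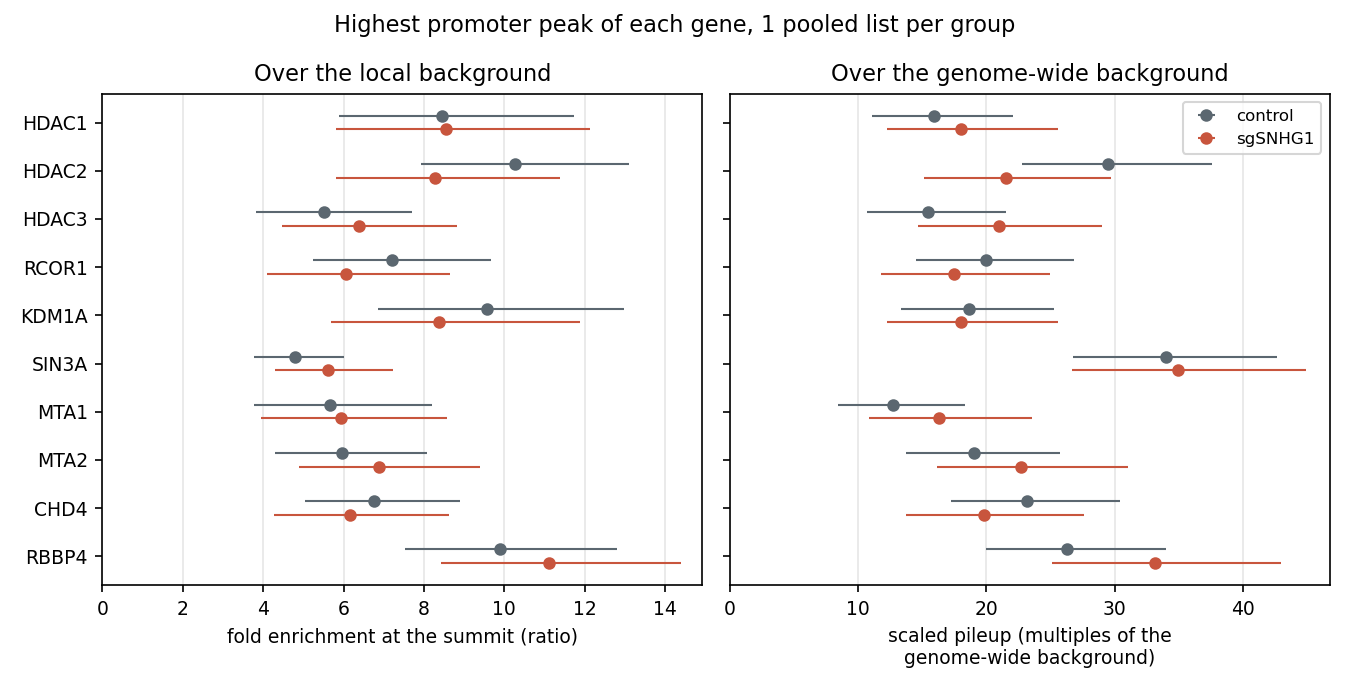
Highest promoter peak of each gene in control (grey) and sgSNHG1 (red), as fold enrichment over the local background (left) and as pileup in multiples of the genome-wide background (right), with exact 95% Poisson intervals of the pileup, which cover counting error only. The intervals of the 2 lists overlap for every gene on both scales, and SIN3A is lowest on the left and highest on the right.

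The 3 deacetylase genes differed from each other in direction, and each 95% counting interval included 0. HDAC1 had a single peak over its start site in each list, chr1:32291842-32292260 in control and chr1:32291831-32292275 in sgSNHG1, with fold enrichments of 8.44 and 8.54 from pileups of 35 and 31 fragments. The log2 ratio was 0.02 ± 0.36 (counting standard error), the summits lay 11 bp apart, and the widths were 419 and 445 bp. HDAC1 was thus nearly the same in height, place and width, and it was among the 2 members whose highest peak was not narrower in sgSNHG1.

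HDAC2 had the highest fold enrichment of the members in control, 10.3 from a pileup of 65, and a lower value of 8.27 from a pileup of 37 in sgSNHG1. Its log2 ratio of -0.31 ± 0.30 was the lowest of the 10 and has a 95% interval from -0.90 to 0.27, which includes 0. The control peak spanned 1577 bp (chr6:113969949-113971525), the widest of any member, and in sgSNHG1 the same ground held a peak of 809 bp over the start site and another of 275 bp with its summit 721 bp inside the gene. The single control peak was thus covered by separate sgSNHG1 peaks, as was the case at 2 of 10 members and 8.46% of genes. The lncRNA gene HDAC2-AS2, read from the opposite strand, starts 347 bp from the HDAC2 start site, so the peak lies over the start region of both genes.

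The HDAC2 gene body held 2 of the 4 member peaks found in sgSNHG1 alone. A small peak in the last exon, within the 3′ UTR, was shared, with fold enrichments of 4.64 and 5.32 and a pileup of 14 in each list. Peaks of 95 bp at 23866 and 24727 bp upstream of the main start site, inside the longer transcripts of the gene, were listed in sgSNHG1 alone with pileups of 12 and 18. In multiples of the genome-wide background of its list, here called the scaled pileup, they stood at 6.98 and 10.5. The smallest value called in control at a like local background was 4.54.

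HDAC3 had fold enrichments of 5.50 in control and 6.37 in sgSNHG1 from pileups of 34 and 36. The log2 ratio was 0.21 ± 0.35. Its peak spanned 933 bp in control (chr5:141636728-141637660) and 593 bp in sgSNHG1 (chr5:141636643-141637235), and the summits lay 231 and 133 bp before the start site. RELL2, a protein-coding gene on the other strand, starts 101 bp away, so both summits stand just inside RELL2 and the peak cannot be assigned to either gene.

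The 2 CoREST genes were both lower in sgSNHG1 within their errors. RCOR1, the scaffold of the complex, had fold enrichments of 7.20 (pileup 44) in control and 6.06 (pileup 30) in sgSNHG1, a log2 ratio of -0.25 ± 0.34. Its control peak of 615 bp (chr14:102592133-102592747) was the other member peak that faced more than a single sgSNHG1 peak, here 420 bp near the start site and 103 bp centred 537 bp before it. The piece of 103 bp was narrower than any peak of the control list, where the narrowest was 119 bp. The highest summits were 114 bp apart, more than at any other member. Summits within 100 bp were found at 9 of 10 members and at 69.5% of genes. An intronic RCOR1 peak 70434 bp downstream of the start site was listed in sgSNHG1 alone, with a scaled pileup of 7.56, where control peaks of a like background were called from 4.54.

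KDM1A, which removes methyl groups from histone H3 lysine 4 and is also called LSD1, had fold enrichments of 9.57 and 8.37 from pileups of 41 and 31. The log2 ratio was -0.19 ± 0.34, and the summits were 9 bp apart, the closest of all members. The peak spanned 863 bp in control (chr1:23019088-23019950) and 423 bp in sgSNHG1 (chr1:23019236-23019658), and a peak of 100 bp at 519 bp inside the gene appeared in sgSNHG1 alone. That peak had a scaled pileup of 7.56, against a smallest called value of 5.44 in control at a like background. It was narrower than any peak of the control list (119 bp or more) and lay just past the end of the wider control peak. A transcript of TEX46, a protein-coding gene of the opposite strand, starts 368 bp from the KDM1A start site, under the control peak and outside the narrower sgSNHG1 peak.

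SIN3A, the scaffold of the SIN3 complex, had the lowest fold enrichment of the members in both lists and the highest pileup. Control stood at a fold enrichment of 4.80 and sgSNHG1 at 5.62, with pileups of 75 and 60 and a log2 ratio of 0.23 ± 0.25, the highest of the 10. Its local background was 6.73 times the genome-wide background in control and 5.74 times in sgSNHG1, while the median over paired peaks within 5 Mb on either side was 1.73 and 1.75 times. Scaled to the genome-wide background instead, the SIN3A summit stood at 34.0 in control and 34.9 in sgSNHG1, the highest of the members. The 2 scales thus order SIN3A at opposite ends.

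A further SIN3A peak 2570 bp upstream of the main start site in control and 2727 bp in sgSNHG1 was shared, with fold enrichments of 2.89 and 3.50. Peaks 742 bp inside the gene and 4067 bp upstream were listed in control alone, with pileups of 40 and 41 over a local background of 14.5 and 13.9. Their scaled pileups were 18.1 and 18.6, and the smallest called in sgSNHG1 at a like background were 17.4 and 16.9. These minima came from only 69 and 88 peaks, so they do not fix that list's limit. The control list therefore gave SIN3A 4 peaks over 1441 bp and the sgSNHG1 list 2 peaks over 791 bp.

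The NuRD genes differed most in where their peaks lay. MTA1, a subunit that recruits the deacetylases to NuRD, had no peak within 1 kb of its MANE start site in either list, although that start site has the highest GC content of the members and 3 GC boxes in the stretch shown above. Its promoter value came from an intronic peak near 20.6 kb downstream, within 3 kb of the start of a shorter transcript, with fold enrichments of 5.67 and 5.93 from a pileup of 28 in each list. The log2 ratio was 0.06 ± 0.39, and with a window of 1 kb, which moves the value to the peak near 29.0 kb, it was -0.24. Intronic peaks 3192 bp downstream (5.04 and 4.67) and near 29.0 kb downstream (4.95 and 4.20) were also shared, so all 3 MTA1 peaks were found in both lists.

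MTA2, the close relative of MTA1, had a peak over its start site with fold enrichments of 5.97 (pileup 42) and 6.88 (pileup 39). The log2 ratio was 0.20 ± 0.32, and the width was 733 bp in control (chr11:62601437-62602169) and 336 bp in sgSNHG1 (chr11:62601671-62602006), the largest difference in log2 width among the highest peaks. An intronic peak about 2.5 kb inside the gene was shared at 4.49 and 3.63. MTA2 is the member nearest the targeted gene, 254088 bp from the SNHG1 start site on chromosome 11.

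CHD4, the ATP-dependent remodeller of NuRD, had its highest peak at the start of a transcript that begins 6786 bp upstream of the main start site and has no defined coding sequence. That peak had fold enrichments of 6.77 (pileup 51) and 6.17 (pileup 34), a log2 ratio of -0.13 ± 0.32. At the main start site a peak was listed in control alone (chr12:6607158-6607409), with a fold enrichment of 4.18 from a pileup of 23. Its scaled pileup was 10.4, and the smallest called in sgSNHG1 at a like background was 7.56. The sgSNHG1 value at this site is not known beyond its absence from the list. A peak 6050 bp upstream, with a pileup of 27, was also in control alone, which left CHD4 with 3 peaks in control and 1 in sgSNHG1.

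Within 1 kb of the MANE start site, 8 of 10 members had a peak in both lists, against 56.3% of 19016 genes, CHD4 had it in control alone and MTA1 in neither list. Over all genes such a peak was in control alone at 1109 and in sgSNHG1 alone at 316. A peak kept to control, as at CHD4, was therefore the more common case.

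RBBP4, the shared histone chaperone, had the highest fold enrichment of the members in sgSNHG1. Its fold enrichment was 9.90 (pileup 58) in control and 11.1 (pileup 57) in sgSNHG1, with a log2 ratio of 0.17 ± 0.27. The peak over the start site spanned 622 bp in control (chr1:32650863-32651484) and 349 bp in sgSNHG1 (chr1:32650927-32651275), and a smaller peak about 0.6 kb upstream was shared at 5.67 and 4.70. A transcript of ZBTB8OS starts 305 bp away on the opposite strand, so signal here cannot be assigned to 1 gene, and RBBP4 lies 359 kb from HDAC1 on chromosome 1.

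**Figure D3:**
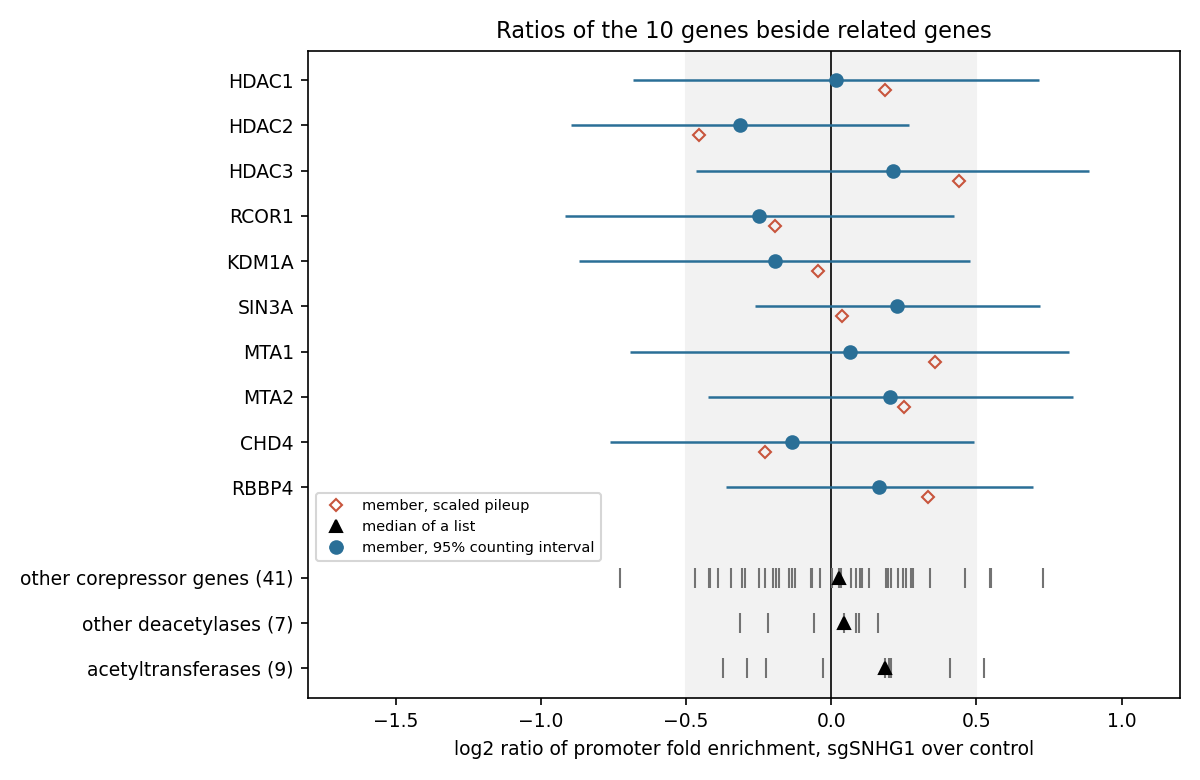
Log2 ratio of promoter fold enrichment, sgSNHG1 over control, for the 10 genes with 95% counting intervals (blue) and by scaled pileup (open diamonds), above the single genes (grey ticks) and medians (triangles) of 3 related lists, with the band between -0.5 and 0.5 shaded. Every blue interval of the 10 genes crosses 0, and the medians of the related lists lie between 0.03 and 0.19.

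In neither list did neighbours in the order of fold enrichment differ beyond their 95% counting intervals. Sorting places the closest values side by side, so this outcome was nearly fixed in advance. The ends of the order lay further apart. In control HDAC2 was above SIN3A by 1.10 ± 0.24 on the log2 scale, and in sgSNHG1 RBBP4 was above SIN3A by 0.98 ± 0.27. These ends were picked by the same values, so the differences are descriptions and not tests. They also hold for fold enrichment only, since SIN3A was the highest member by scaled pileup in both lists. By scaled pileup 4 of the 10 members were lower in sgSNHG1, and these were the same 4 genes, against 54.4% of all genes. The ratios on that scale ran from -0.45 at HDAC2 to 0.44 at HDAC3, with a median of 0.11 against -0.04 over all genes. This scale also carries shifts of the surrounding region. The median scaled log2 ratio of paired peaks within 5 Mb ran from -0.06 around HDAC3 to 0.17 around MTA1. It was negative only around HDAC2 and HDAC3, and was -0.01 over all pairs. How much of the members' ratios is shared with their regions was not tested.

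Peaks were narrower in sgSNHG1 at most members, as they were across the genome. The highest promoter peak was narrower in sgSNHG1 at 8 of 10 members and at 83.4% of genes, with HDAC1 and MTA1 as the exceptions. Over mutual best overlaps of all member peaks, 12 of 16 pairs were narrower, against 79.8% of 31663 pairs in the genome, and the median log2 width ratio was -0.51 against -0.42. The members covered 9924 bp in control and 6723 bp in sgSNHG1, with a mean fold enrichment per peak of 5.75 and 5.82. Over the highest promoter peaks alone the median log2 width ratio was -0.67 at the members and -0.39 over all genes, so the share of narrower peaks was near that of the genome and the median ratio was lower.

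**Figure D4:**
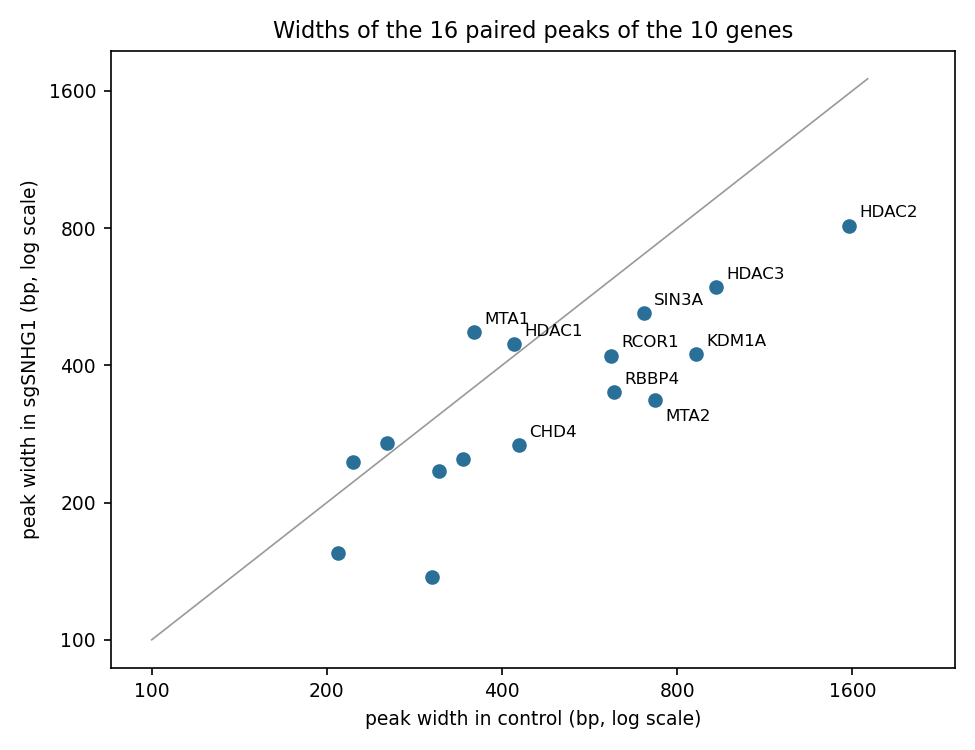
Width of each of the 16 paired peaks in control (horizontal) and sgSNHG1 (vertical), in bp on log scales, with the line of equal width and the widest pairs named. A total of 12 pairs lie below the line, HDAC2 is widest at 1577 and 809 bp, and HDAC1 and MTA1 are named above it.

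Most member peaks were shared between the lists by at least 1 bp. In control 16 of 20 were shared, 80.0% (Wilson 95% interval 58.4 to 91.9%), against 66.7% of all control peaks. In sgSNHG1 18 of 22 were shared, 81.8% (61.5 to 92.7%), against 78.2% of all sgSNHG1 peaks. Both member intervals include the share of the whole list and of all its promoter peaks. Of the members' promoter peaks 15 of 19 in control (78.9%) and 17 of 18 in sgSNHG1 (94.4%) were shared, against 75.8% and 87.5% of all promoter peaks. The 4 control peaks without a partner belonged to CHD4 and SIN3A, and the 4 in sgSNHG1 to HDAC2, KDM1A and RCOR1. Those of HDAC2 and KDM1A, of 95 and 100 bp, were narrower than any control peak.

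Among 44 other genes of class I deacetylase complexes, 41 had a promoter peak in both lists. The ratio was lower for 19 and higher for 22, with a median of 0.03, while 60.4% of all protein-coding genes were lower. Only BRMS1L, a SIN3 subunit, had a 95% counting interval that excluded 0. This was 1 of 41 genes, where 1.99% of all protein-coding genes had such an interval, so it does not set this list apart. BRMS1L went from 11.0 in control to 15.2 in sgSNHG1 in fold enrichment, a log2 ratio of 0.46 ± 0.21. CHD5, the neural relative of CHD4, and the SIN3 subunit SUDS3 had their only promoter peak in control (3.63 and 3.39), and SIN3B, the relative of SIN3A, had it in sgSNHG1 (4.63).

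The other deacetylases had a peak in both lists at 7 of 7 genes, with 3 lower and a median of 0.04. The acetyltransferases, which add the acetyl groups that the members' complexes remove, had it at 9 of 10, with 4 lower and a median of 0.19, and KAT2A was in control alone (4.21). Over these 3 lists the lowest ratios were those of GSE1 (-0.73 ± 0.47), ING2 (-0.47 ± 0.37) and MTA3 (-0.42 ± 0.34). The highest were those of GPS2 (0.73 ± 0.48), TRERF1 (0.55 ± 0.41) and MIER2 (0.55 ± 0.45), and the 95% intervals of these 6 genes include 0. The GSE1 value compares sites 313493 bp apart. ING2 and its fellow SIN3 subunit SAP30 are both on chromosome 4, and their scaled pileups were lower by more than their fold enrichments, with log2 ratios of -1.50 and -1.24.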

How the data were processed

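Per the labels and the study's methods, the authors trimmed reads with cutadapt, aligned them to GRCh38 with BWA, marked duplicates with Picard, filtered and shifted read ends with deepTools, and called peaks with MACS2 on the combined replicates of each group. Tool versions, genome size and q threshold are not given in the sources used here. Per peak, the deposited fold enrichment is the ratio of (pileup + 1) to (local background + 1). The deposited -log10 p and -log10 q give the Poisson probability of such a pileup under that background. Scores per peak were not used.

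Pileup and background were solved from fold enrichment and -log10 p, within 0.001, for 47609 of 47610 control and 42682 of 42682 sgSNHG1 peaks. The smallest background (2.20 and 1.72 fragments) served as the genome-wide background for the scaled pileup. Total depth per library is unknown. The counting standard error of a log2 ratio came from both pileups. Genes came from GENCODE version 44, and the value of a gene was its highest fold enrichment among promoter peaks. Pairs were mutual best overlaps. The calculations were tested on simulated data and run in Python 3.11.15 with pandas 2.3.3 and scipy 1.17.1.

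The members, lists and motifs were chosen with earlier results of these data known. All 10 members are named. From the other 3 lists the text names the 3 lowest and 3 highest ratios and the genes with a promoter peak in 1 list alone, and BRMS1L and SAP30 were added after their values were seen. Alternatives covered the q threshold, the window, the start sites used, the scale, the peak chosen and the overlap, and the MANE start site was added after seeing the data.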

Additional observations from a re-analysis of the deposited data

How the results depend on the processing

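The 8 summary results of the members were recomputed in 76 alternatives, of which 67 stayed within the interval, or within 1.5 times for counts. Many of the 67 could change little or nothing. The peak counts, shares and width ratio kept the same values in every window and start site setting, where gene body peaks always count. The q thresholds and the mutual best pairs left the median log2 ratio and the number of lower members unchanged. The 67 is therefore not a measure of robustness. Gene body peaks alone left 1 control peak (100% shared) and 4 sgSNHG1 peaks (25% shared), and the width ratio of the only pair reversed to 0.14. A -log10 q of at least 10 left 12 control and 11 sgSNHG1 member peaks, and the sgSNHG1 share was 59.1% with 50% overlap of both peaks and 94.4% for promoter peaks alone (87.5% over all promoter peaks). The median log2 ratio ran from -0.06 to 0.11 over its alternatives. Summing fold enrichment over all promoter peaks moved CHD4 to -1.23 and changed the sign for HDAC2 (0.32), RCOR1 (0.44), KDM1A (0.33), SIN3A (-0.53) and MTA1 (-0.08), since split or missing peaks then count, and a 1 kb window gave MTA1 -0.24. With the MANE start site alone, 8 members had a promoter peak in both lists, 3 of them lower, because MTA1 and CHD4 dropped out. No paired analysis was possible because the replicates of each group were combined before peak calling, and for the same reason no replicate could be left out. Pileups of 28 to 75 fragments at the highest peaks limit what the ratios can show.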
